A study of Homo sapiens with 24 samples.

Results

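The 45 genes described here encode nucleolar and ribosome assembly proteins, together with a few growth-linked proteins listed beside them, and were taken from a named list of genes whose transcription is linked to the transcription factor MYC. They were found by symbol among the 60230 genes of the deposited count table, and all 45 were among the 18242 genes expressed well enough to be tested. RNA was measured in 24 tumors of AsPC-1, an established human pancreatic ductal adenocarcinoma cell line, grown in mice. The mice received 3 doses by mouth, 1 every other day, and 4 animals made up each of 6 groups. IK-595, labelled a MEK-RAF molecular glue and given at 6 mg/kg, was studied at 2, 4, 8, 24 and 48 h after the last dose. The control mice received vehicle (5% DMSO and 95% PEG400), and their tumors were taken at 2 h alone, so every later time is set against 2 h vehicle tumors. In a bulk tumor sample, fewer cancer cells and less RNA per cancer cell cannot be told apart.

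Ribosomes are assembled in the nucleolus. RNA polymerase I transcribes the long precursor rRNA there, the small subunit processome folds and cuts it, small nucleolar ribonucleoproteins modify its nucleotides, and separate sets of assembly factors build the small and the large subunit. MYC binds DNA together with MAX, often at the E-box CACGTG, and is known as an activator of many genes of nucleolar proteins and of ribosome assembly. MEK and ERK signalling is known to raise MYC transcription and to stabilise the MYC protein.

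Depth was 10.52 to 20.64 M estimated counts per tumor (M stands for 1e6), and mitochondrial transcripts took 7.36 to 31.4% of them. AsPC-1 epithelial markers were present throughout, with 10 of 10 above a mean of 1 count per M counts (CPM) and a summed level of 6217 to 16278 CPM per tumor. The summed fibroblast and pericyte markers lay between 893 and 5163 CPM in 23 tumors and reached 29976 CPM in 4 h tumor 2, which also had the lowest depth. Muscle, fat and red cell markers summed to 2829 CPM in 2 h tumor 1, 1759 CPM in 24 h tumor 4, 1519 CPM in 8 h tumor 2, 1431 CPM in 4 h tumor 4 and 603 CPM in 8 h tumor 4, against 16.3 to 162 CPM in vehicle tumors, and ADIPOQ was at 0 in every tumor. Counts of members without these 5 tumors and 4 h tumor 2, which leaves 2 tumors each at 4 and 8 h, are given where they moved. Among vehicle tumors, tumor 3 had the lowest level for 43 of the 45 members and is shown with and without below.

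Promoters were read for 39 of the 45 members from RefSeq sequence of GRCh38.p14, as windows of 300 bases from 250 bases before to 50 bases after each annotated start. The E-box CACGTG, which reads the same on both strands, was present in a window of 19 of these 39 members (48.7%), against 8.77% of all 27305 genes in the table, 11.9% of the 12130 tested genes matched and 13.9% of the 3415 matched genes that fell at 8 h. The member windows had a median GC content of 65.0%, against 58.7% over all windows, and the part of base composition in these shares was not tested. The members were listed for their link to MYC, and the part of that choice in the shares was not tested either. No promoter was matched for RRP12, NOP58, BOP1, RRS1, RRP1B and NOLC1. Among these, NOLC1 and RRS1 had log2 fold changes of -2.28 and -2.14 at 8 h. Shown here are promoters of the 3 matched members with the largest falls at 8 h whose window held CACGTG, printed in capitals. Those of the 2 matched members with the largest falls whose window did not hold it follow. The windows are chr6:41921249-41921548 on the plus strand for BYSL, chr12:101279855-101280154 plus for UTP20, chr2:28894417-28894716 plus for WDR43, chr1:117929489-117929788 plus for WDR3 and chr1:236604467-236604766 minus for HEATR1. All are written 5′ to 3′ on the strand of the gene.
BYSL: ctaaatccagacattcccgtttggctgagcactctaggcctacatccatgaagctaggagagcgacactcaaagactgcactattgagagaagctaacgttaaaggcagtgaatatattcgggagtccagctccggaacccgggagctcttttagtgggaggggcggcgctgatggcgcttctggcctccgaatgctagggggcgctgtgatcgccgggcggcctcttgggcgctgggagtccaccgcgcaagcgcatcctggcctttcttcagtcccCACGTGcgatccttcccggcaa
UTP20: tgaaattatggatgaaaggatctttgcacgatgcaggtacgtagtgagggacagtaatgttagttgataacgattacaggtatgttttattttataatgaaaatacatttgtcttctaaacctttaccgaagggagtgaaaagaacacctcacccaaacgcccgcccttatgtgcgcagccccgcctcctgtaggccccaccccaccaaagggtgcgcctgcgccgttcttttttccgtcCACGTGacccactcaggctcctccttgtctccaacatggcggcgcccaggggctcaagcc
WDR43: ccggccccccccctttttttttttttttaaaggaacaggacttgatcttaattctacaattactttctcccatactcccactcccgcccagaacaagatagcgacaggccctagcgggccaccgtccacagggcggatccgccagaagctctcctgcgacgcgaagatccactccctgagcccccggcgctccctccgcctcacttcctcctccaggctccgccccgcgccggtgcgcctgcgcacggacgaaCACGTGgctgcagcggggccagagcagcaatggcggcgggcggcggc
WDR3: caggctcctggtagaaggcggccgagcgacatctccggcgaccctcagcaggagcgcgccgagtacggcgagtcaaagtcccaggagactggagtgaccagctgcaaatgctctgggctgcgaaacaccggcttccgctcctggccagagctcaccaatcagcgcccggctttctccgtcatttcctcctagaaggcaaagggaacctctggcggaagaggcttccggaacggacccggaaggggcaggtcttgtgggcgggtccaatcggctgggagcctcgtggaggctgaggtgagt
HEATR1: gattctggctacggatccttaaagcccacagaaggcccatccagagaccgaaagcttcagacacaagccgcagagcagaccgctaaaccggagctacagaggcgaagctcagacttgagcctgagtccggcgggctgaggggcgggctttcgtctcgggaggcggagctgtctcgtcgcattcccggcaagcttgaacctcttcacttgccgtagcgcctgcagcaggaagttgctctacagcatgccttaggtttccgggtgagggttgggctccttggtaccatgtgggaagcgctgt
The motif began at position +29 from the start in BYSL, at -10 in UTP20 and at +4 in WDR43. WDR3, the member with the largest fall at 8 h, held no copy in its window. The median log2 fold change at 8 h against vehicle was -1.75 over the 19 members with the motif and -1.24 over the 20 matched members without it. A match describes these letters and not the binding of a factor.

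MYC fell further than any member at 2, 4 and 8 h. It read 78.3, 83.2, 63.9 and 69.4 CPM in vehicle tumors, 7.20, 8.63, 6.36 and 7.88 in 2 h tumors, 7.97, 9.28, 5.28 and 7.67 in 4 h tumors, 8.23, 6.86, 3.55 and 6.05 in 8 h tumors, 35.6, 22.7, 53.2 and 23.7 in 24 h tumors and 44.9, 34.8, 63.5 and 40.97 in 48 h tumors. The 12 tumors taken at 2, 4 and 8 h lay far below the 4 vehicle tumors, the 24 h tumors lay in between, and 48 h tumor 3 came within 1 CPM of the lowest vehicle tumor. The log2 fold change of MYC against vehicle was -3.29 ± 0.27 at 2 h and -3.30 ± 0.27 at 4 h. By 8 h it was -3.58 ± 0.28, and the 24 h value was -1.13 ± 0.25 (SE, edgeR adjusted p at most 0.00215). At 48 h it was -0.68 ± 0.25, which did not pass (edgeR adjusted p = 0.0856). It did pass under limma-voom (-0.71), with only the groups compared (-0.68) and without 48 h tumor 3 (-0.87).

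The members followed with smaller falls, and every member passed at 8 h. Against vehicle, at an edgeR adjusted p under 0.05, 31 of the 45 members fell at 2 h, where 13.6% of all tested genes fell. At 4 h 31 fell, against 8.39% of all genes. At 8 h 45 of 45 fell, against 23.7% of all genes. At 24 h 25 fell, against 13.8% of all genes, and at 48 h 14 fell, against 4.46%. None rose at any of the 5 times, where 13.4, 6.74, 20.6, 13.7 and 5.52% of all tested genes rose in order of time. The members' median log2 fold change against vehicle, in order of time, was -0.71, -0.66, -1.30, -0.56 and -0.46, while the median over all tested genes stayed between -0.01 and 0.07. At 8 h 34 members had fallen by at least 1 on the log2 scale, as had 8.38% of all tested genes. Without vehicle tumor 3 the counts were 38, 32, 45, 33 and 18 at the 5 times. Without vehicle tumor 1, which had the highest vehicle level for 37 members, they were 26, 21, 43, 19 and 3. The mitochondrial share was 18.3 to 23.4% in 8 h tumors, against 8.00 to 10.8% in vehicle tumors. The summed epithelial markers were 6217 to 10283 CPM in 8 h tumors, against 9106 to 12393 CPM in vehicle tumors. Single markers went both ways, and of 10 tested 2 fell and 2 rose at 8 h. Mean KRT8 and KRT18 were 4924 and 2011 CPM in vehicle tumors and 3162 and 1046 CPM in 8 h tumors. Mean EPCAM and MUC1 were 677 and 172 CPM in vehicle tumors and 912 and 647 CPM in 8 h tumors. With mitochondrial genes left out 44 members fell at 8 h, and without the 6 tumors of high host marker sums 44 also fell. The part of the epithelial markers in the 8 h falls was not tested.

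Single tumors were then compared. All 4 IK-595 tumors lay below all 4 vehicle tumors for 30 members at 2 h, against 16.9% of all tested genes. At 4 h this held for 27 members (11.5% of genes), at 8 h for 44 (23.8%), at 24 h for 15 (13.5%) and at 48 h for 11 (9.26%). NHP2 was the member whose 8 h and vehicle tumors overlapped. The F test over the 5 times passed for 44 members, all but SRM, and for 49.8% of all tested genes. The lowest group mean was at 8 h for 42 members, and for 24.8% of all tested genes. Of the other members, PPAN was lowest at 4 h, and FBL and NHP2 were lowest at 24 h.

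**Figure D1:**
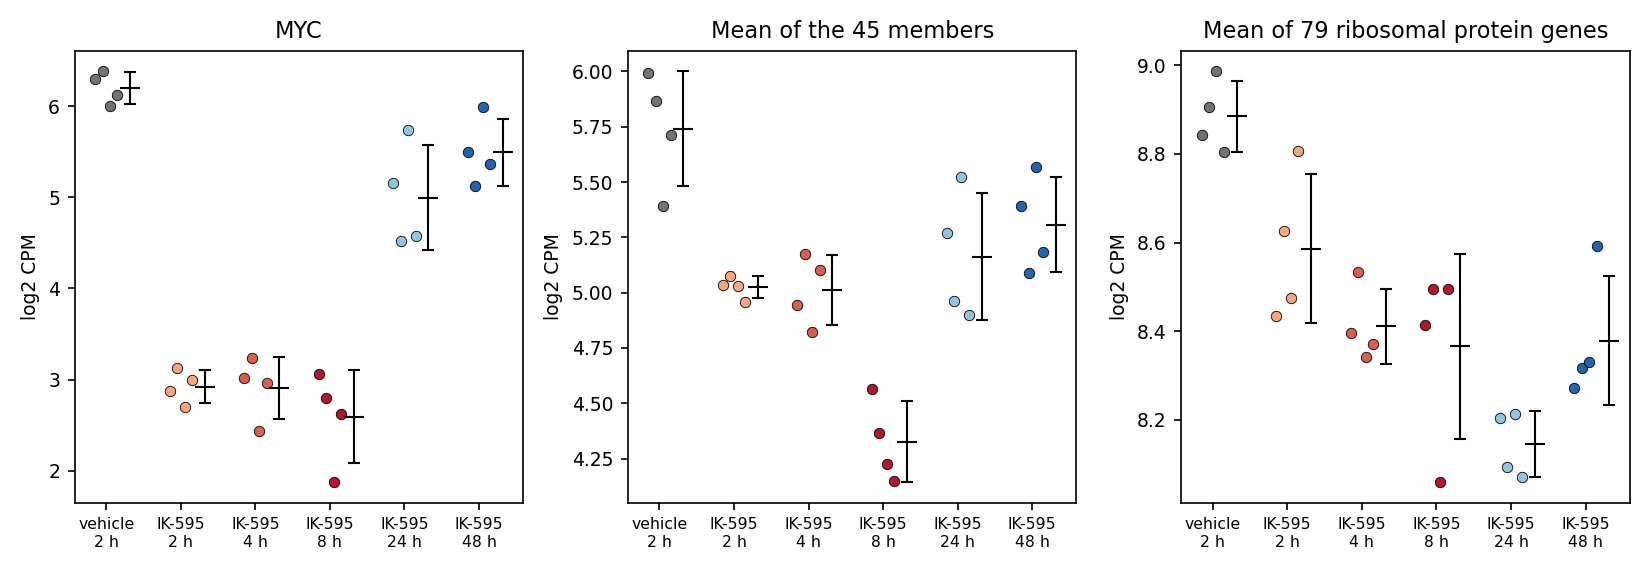
Log2 CPM in each tumor of MYC (left), of the mean over the 45 members (middle) and of the mean over 79 cytosolic ribosomal protein genes (right), for vehicle at 2 h and for IK-595 at 2 to 48 h. Points are tumors, and the bar beside them is the mean with SD (n = 4). MYC was near its low at 2 h (mean 2.92 against 6.20 in vehicle), the members were lowest at 8 h (mean 4.33) and the ribosomal protein genes at 24 h.

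**Figure D2:**
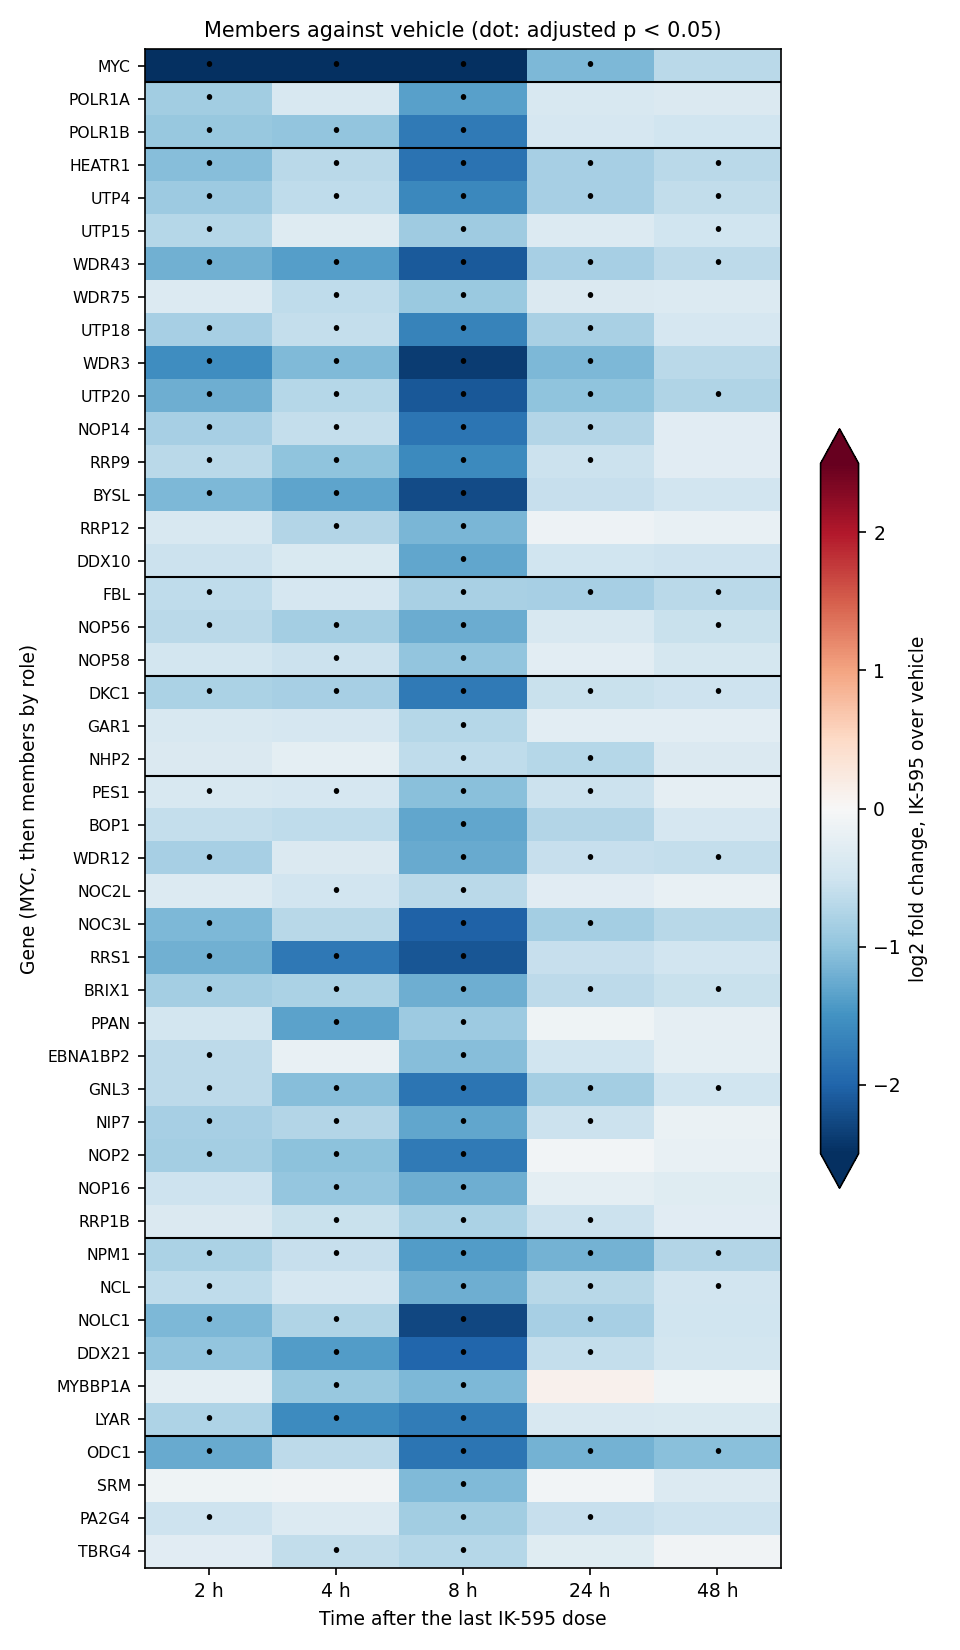
Log2 fold change of IK-595 over vehicle at each time for MYC and the 45 members, grouped by role, with a dot where the edgeR adjusted p was under 0.05. All 45 members carry a dot at 8 h, as do 31 in the 2 h column and 14 in the 48 h column.

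Between 2 and 8 h many members fell further while MYC did not pass, but the direct test of that difference made no call. Against vehicle, MYC at 2 h stood at 92.1% of its 8 h log2 fall. The members stood at a median of 50.1%, with a range from 10.1% in SRM to 79.5% in UTP15. The 2 h tumors had also received earlier doses. At 48 h after the last dose a median of 28.8% of the members' 8 h fall was left, and 19.0% for MYC. What part of the 2 h falls came from earlier doses was not tested. MYC at 8 h did not differ from 2 h past the threshold (log2 fold change -0.28 ± 0.27, SE, edgeR adjusted p = 0.648), and the difference was -0.46 without 8 h tumor 1 and -0.09 without 8 h tumor 3, neither of them called. Between the same times 24 of the 45 members fell further, against 3.41% of all tested genes, and none rose, against 1.05%. Of these 24, 20 had already fallen at 2 h, and 4 (WDR75, RRP12, DDX10 and MYBBP1A) had not passed at 2 h. A further 11 members fell by 2 h with no further call by 8 h. From 2 to 4 h 4 members fell (PPAN, GNL3, MYBBP1A and LYAR), where 9% of all tested genes fell, and none rose, against 6.89%. These 4 are 8.89% of the members, near the share of all genes, and without 2 h tumor 1 the calls were 5 falls and 3 rises. From 4 to 8 h 27 fell, against 15.5% of all genes, and none rose, against 11.6%. The count between 8 and 2 h was sensitive to single tumors and was 9 without 8 h tumor 4, 12 without 8 h tumor 2, 13 without 2 h tumor 2, 14 without 8 h tumor 3 and 15 without 2 h tumor 1 or 2 h tumor 4. Without the 6 tumors of high host marker sums 1 member fell from 2 to 8 h and 0 from 4 to 8 h. That fit, with 2 tumors each at 4 and 8 h, called 0 of all tested genes from 4 to 8 h. From 2 to 8 h the fewest calls over all tested genes in any alternative was 33, against 814 with every tumor in the edgeR fit.

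The ratio of each gene to MYC in the same tumor was then compared between 8 and 2 h with limma. Of the 45 members 0 fell or rose relative to MYC at an adjusted p under 0.05, where 0.11% of all genes fell and 0.0548% rose. At an unadjusted p under 0.05, 11 members had fallen relative to MYC and 0 had risen, and 1.01% of all genes had fallen. The median log2 change of the ratio was -0.37 over the members and 0.31 over all genes, and every ratio shares the MYC values of the same 8 tumors. In 8 h tumor 3 MYC was at 3.55 CPM, against 6.05 to 8.23 CPM in the other 8 h tumors.

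RNA polymerase I was represented by its core subunits POLR1A and POLR1B. Both fell at 2 h and 8 h and rose again by 24 h. POLR1B read 52.4, 41.5, 27.7 and 38.2 CPM in vehicle tumors, 20.98, 24.1, 19.5 and 18.1 in 2 h tumors, 18.5, 23.2, 19.3 and 20.1 in 4 h tumors, 13.5, 10.48, 14.3 and 8.55 in 8 h tumors, 33.6, 26.02, 34.3 and 25.1 in 24 h tumors and 30.8, 22.96, 33.9 and 25.9 in 48 h tumors. Its 8 h tumors lay below every other tumor, and the 24 h and 48 h tumors overlapped vehicle tumor 3. The log2 fold change was -0.95 ± 0.18 at 2 h and -1.77 ± 0.19 at 8 h (SE, edgeR adjusted p = 8.34e-04 and 2.71e-07), and from 8 to 24 h it rose by 1.34 ± 0.19 (adjusted p = 6.63e-05). POLR1A read 72.6, 66.7, 40.9 and 60.4 CPM in vehicle tumors, 38.7, 35.6, 32.97 and 24.8 in 2 h tumors, 40.1, 49.5, 36.4 and 55.4 in 4 h tumors, 25.5, 25.2, 21.8 and 21.6 in 8 h tumors, 49.1, 38.9, 60.7 and 33.2 in 24 h tumors and 50.3, 36.9, 60.9 and 39.7 in 48 h tumors. Its 2 h and 8 h tumors lay below every vehicle tumor, and its 4, 24 and 48 h tumors overlapped them. It fell by a log2 value of -1.35 ± 0.21 at 8 h (adjusted p = 2.12e-05). At 4 h, with 36.4 to 55.4 CPM against 40.9 to 72.6 CPM in vehicle tumors, POLR1A did not pass (-0.41 ± 0.20, adjusted p = 0.179).

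The small subunit processome and its maturation factors held 13 members. All 13 fell at 8 h, with log2 fold changes between -2.37 and -0.89, and all 13 rose from 8 to 24 h. In this role 10 fell at 2 h and 11 at 4 h, while the later times gave 9 (24 h) and 5 (48 h). WDR3, a WD-repeat protein of the UTPB part of the processome, read 33.01, 34.96, 23.7 and 26.96 CPM in vehicle tumors, 11.3, 10.1, 9.97 and 9.18 in 2 h tumors, 11.4, 14.3, 14.5 and 14.8 in 4 h tumors, 6.53, 6.56, 4.81 and 5.01 in 8 h tumors, 8.36, 13.2, 19.8 and 13.1 in 24 h tumors and 22.7, 15.4, 24.5 and 11.6 in 48 h tumors. Every treated tumor up to 24 h lay below every vehicle tumor, and 48 h tumor 3 reached above vehicle tumor 3. The log2 fold change of WDR3 was -1.55 ± 0.23 at 2 h and -2.37 ± 0.24 at 8 h (SE, edgeR adjusted p = 7.33e-05 and 1.21e-07), the largest fall of a member at both times. From 8 to 24 h it rose by 1.25 ± 0.23 (adjusted p = 0.00147). Its further fall from 2 to 8 h (-0.82 ± 0.23, adjusted p = 0.0451) lost its call on leaving out any of the 8 tumors compared. BYSL, UTP20, WDR43 and HEATR1, whose promoters are shown above, had 8 h log2 fold changes of -2.24, -2.11, -2.10 and -1.84.

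UTP4, a subunit of the UTPA part, which joins the nascent precursor early, had the highest vehicle TPM of this role and read 68.5, 59.9, 53.8 and 54.8 CPM in vehicle tumors, 37.2, 30.5, 29.4 and 29.7 in 2 h tumors, 32.4, 45.4, 36.5 and 37.8 in 4 h tumors, 23.6, 19.2, 14.3 and 20.2 in 8 h tumors, 26.6, 29.00, 47.2 and 29.8 in 24 h tumors and 46.6, 32.7, 44.9 and 29.7 in 48 h tumors. All of its treated tumors lay below all of its vehicle tumors at each time. It changed by -1.62 ± 0.19 at 8 h and -0.84 ± 0.18 at 24 h (log2, SE, edgeR adjusted p = 7.73e-07 and 0.00183). UTP15, another UTPA subunit, had the smallest 8 h fall of the role and read 27.7, 25.8, 19.9 and 24.2 CPM in vehicle tumors, 16.2, 15.1, 13.9 and 14.5 in 2 h tumors, 19.2, 22.2, 18.7 and 17.9 in 4 h tumors, 13.7, 13.4, 14.3 and 11.1 in 8 h tumors, 18.5, 17.4, 25.7 and 15.8 in 24 h tumors and 20.3, 17.01, 18.01 and 14.2 in 48 h tumors. Its 2 h and 8 h tumors had no overlap with vehicle tumors, and most of its fall was present at 2 h (-0.71 ± 0.15, against -0.89 ± 0.15 at 8 h, adjusted p = 0.00146 and 5.38e-05). The remaining members of the role also fell at 8 h. UTP18, a UTPB subunit, changed by -1.67 and WDR75, a UTPA subunit, by -0.94. RRP9, a protein of the U3 particle that guides cleavage of the precursor, changed by -1.59, and NOP14, a processome protein, by -1.83. The helicase DDX10 changed by -1.30 and RRP12, which takes part in export of the small subunit precursor, by -1.14.

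**Figure D3:**
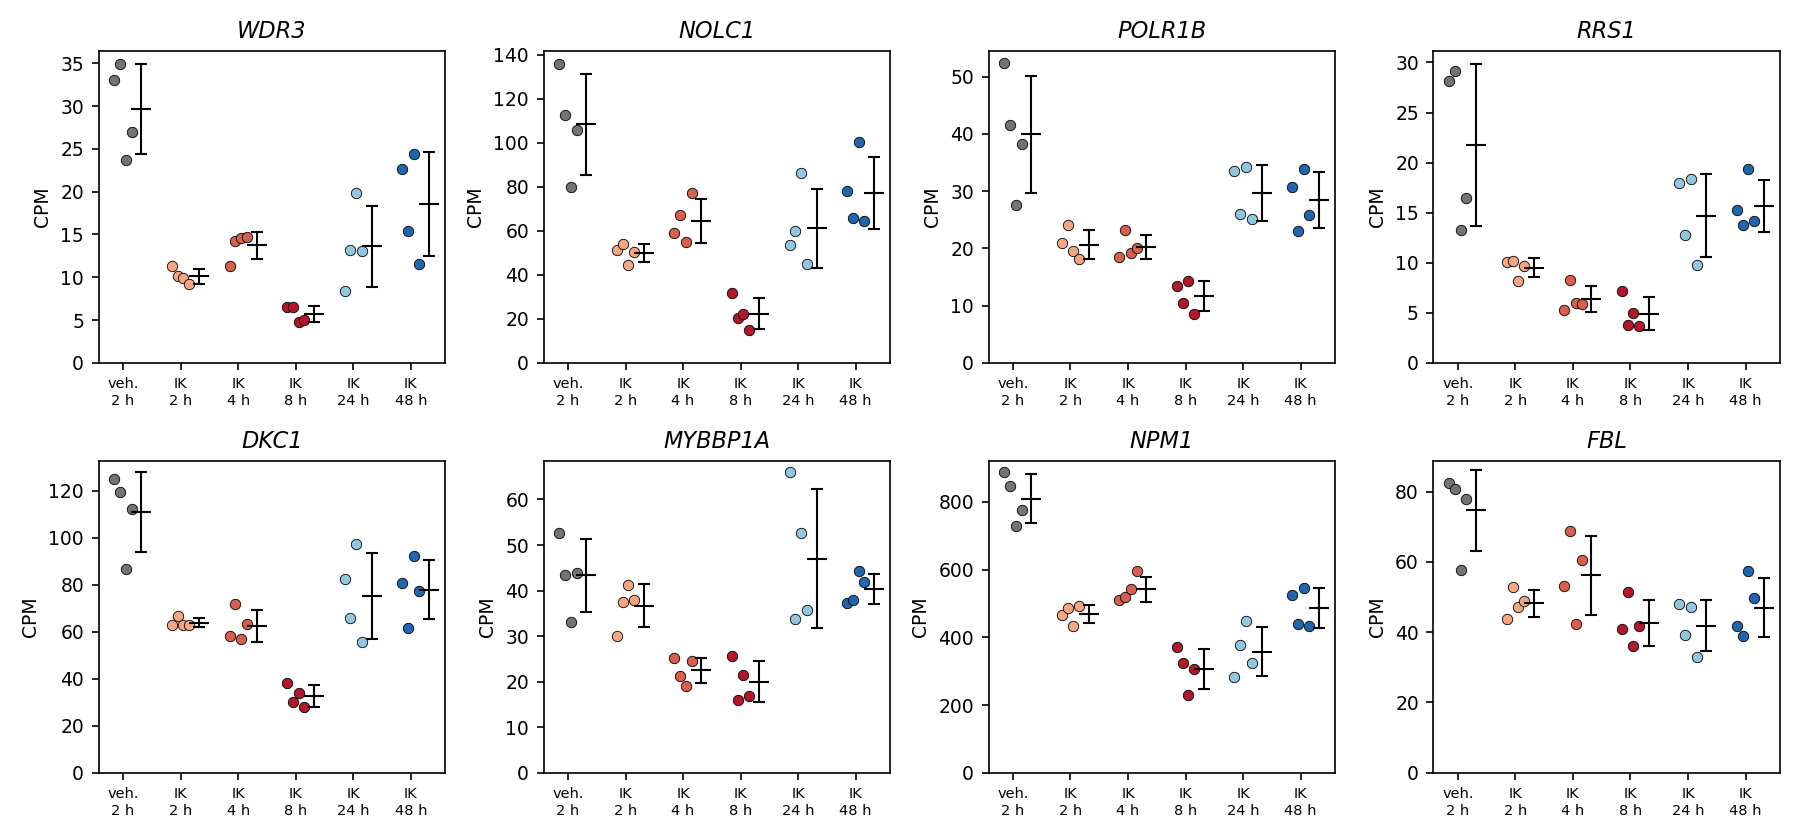
CPM per tumor for 8 members (WDR3, NOLC1, POLR1B, RRS1, DKC1, MYBBP1A, NPM1 and FBL) in vehicle at 2 h and IK-595 at 2 to 48 h, each axis starting at 0. Points are tumors, and the bar beside them is the mean with SD (n = 4). MYBBP1A returned to 33.7 to 66.0 CPM at 24 h, while FBL stayed at 32.8 to 48.0 CPM.

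The core proteins of the box C/D ribonucleoproteins, which guide methylation of rRNA, had 3 members on the list. All 3 of these fell at 8 h, and from 2 to 8 h none passed. NOP56, a scaffold protein of the particle, read 154, 131, 113 and 129.9 CPM in vehicle tumors, 74.7, 93.5, 83.5 and 79.1 in 2 h tumors, 75.6, 79.7, 62.3 and 73.7 in 4 h tumors, 62.7, 52.9, 54.9 and 51.7 in 8 h tumors, 146, 72.04, 107 and 74.00 in 24 h tumors and 88.3, 73.2, 106 and 89.2 in 48 h tumors. Its 2, 4 and 8 h tumors lay below every vehicle tumor, and 24 h tumor 1 lay within the vehicle range. The 8 h log2 fold change was -1.25 ± 0.17 (SE, edgeR adjusted p = 8.05e-06), and from 8 to 24 h NOP56 rose by 0.85 ± 0.17 (adjusted p = 0.0034). FBL, the methyltransferase itself, read 82.4, 80.7, 57.6 and 77.9 CPM in vehicle tumors, 43.9, 52.9, 47.03 and 48.9 in 2 h tumors, 53.1, 68.8, 42.2 and 60.4 in 4 h tumors, 41.01, 51.5, 36.1 and 41.7 in 8 h tumors, 48.02, 39.3, 47.3 and 32.8 in 24 h tumors and 41.7, 38.9, 57.4 and 49.8 in 48 h tumors. No return was seen in FBL, whose tumors at 24 and 48 h all lay below the vehicle tumors. The log2 fold change was -0.81 ± 0.16 at 8 h and -0.84 ± 0.16 at 24 h (adjusted p = 3.95e-04 and 7.64e-04), and from 8 to 24 h it was -0.03 ± 0.16, which did not pass (adjusted p = 0.957). NOP58, the partner scaffold, changed by -0.98 ± 0.17 at 8 h (adjusted p = 1.15e-04).

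The box H/ACA core, which guides pseudouridylation and is also part of telomerase, split between a deep and a shallow fall. DKC1, the pseudouridine synthase, read 125, 119, 86.8 and 112 CPM in vehicle tumors, 62.8, 66.6, 62.9 and 62.9 in 2 h tumors, 58.1, 71.7, 56.9 and 63.5 in 4 h tumors, 38.3, 30.1, 33.99 and 27.8 in 8 h tumors, 82.6, 65.8, 97.2 and 55.8 in 24 h tumors and 80.8, 61.7, 91.99 and 77.1 in 48 h tumors. Its 8 h tumors lay below all others, and 24 h tumor 3 and 48 h tumor 3 stood within the vehicle range. It changed by -1.77 ± 0.16 at 8 h against vehicle and by -0.97 ± 0.16 from 2 to 8 h (log2, SE, edgeR adjusted p = 3.03e-08 and 9.01e-04), and from 8 to 24 h it rose by 1.21 ± 0.16 (adjusted p = 3.35e-05). NHP2, which binds the RNA of the particle, read 90.01, 73.7, 50.2 and 69.1 CPM in vehicle tumors, 47.2, 63.4, 63.6 and 47.4 in 2 h tumors, 66.7, 46.6, 52.2 and 74.04 in 4 h tumors, 46.6, 56.3, 31.2 and 48.1 in 8 h tumors, 44.6, 36.7, 53.6 and 37.2 in 24 h tumors and 51.95, 46.5, 67.1 and 55.6 in 48 h tumors. Treated and vehicle tumors overlapped at each time for NHP2, and its 8 h fall of -0.64 ± 0.20 (adjusted p = 0.0116) lost its call without vehicle tumor 1 or without 8 h tumor 3. GAR1, the remaining core protein on the list, changed by -0.70 ± 0.18 at 8 h (adjusted p = 0.00247) and did not pass at the other times.

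Of the 14 large subunit assembly members all fell at 8 h. The earlier times gave 9 (2 h) and 10 (4 h), and the later times 7 (24 h) and 3 (48 h). RRS1, which helps to place the smallest rRNA into the large subunit, read 28.2, 29.1, 13.3 and 16.5 CPM in vehicle tumors, 10.1, 10.1, 8.20 and 9.68 in 2 h tumors, 5.30, 8.33, 5.97 and 5.90 in 4 h tumors, 7.18, 3.77, 5.01 and 3.71 in 8 h tumors, 17.98, 12.7, 18.3 and 9.75 in 24 h tumors and 15.3, 13.8, 19.4 and 14.1 in 48 h tumors. The 2, 4 and 8 h tumors lay below every vehicle tumor, and the 24 h and 48 h tumors overlapped the vehicle tumors. Against vehicle RRS1 changed by -1.19 ± 0.25, -1.78 ± 0.26 and -2.14 ± 0.26 at 2, 4 and 8 h (log2, SE, edgeR adjusted p = 0.00173, 3.61e-05 and 1.78e-06). From 8 to 24 h it rose by 1.57 ± 0.26 (adjusted p = 4.93e-04). GNL3, the nucleolar GTPase nucleostemin, read 64.7, 61.9, 55.3 and 56.7 CPM in vehicle tumors, 34.5, 37.4, 36.8 and 43.7 in 2 h tumors, 28.7, 26.3, 30.1 and 28.7 in 4 h tumors, 21.7, 15.6, 16.6 and 13.3 in 8 h tumors, 37.1, 30.9, 36.6 and 28.2 in 24 h tumors and 41.1, 35.99, 47.5 and 44.1 in 48 h tumors. Every treated GNL3 tumor lay below every vehicle tumor at all 5 times. It changed by -1.82 ± 0.14 at 8 h and by -1.18 ± 0.14 from 2 to 8 h (adjusted p = 2.32e-09 and 1.51e-05), which were the smallest adjusted p of a member in both comparisons. NOC2L, a nucleolar complex protein, had the smallest 8 h change of the role (-0.68 ± 0.15, adjusted p = 0.00102) and read 94.4, 97.3, 61.96 and 84.1 CPM in vehicle tumors, 56.2, 75.3, 73.1 and 63.1 in 2 h tumors, 67.4, 55.99, 54.2 and 64.9 in 4 h tumors, 57.5, 54.5, 48.9 and 49.8 in 8 h tumors, 85.8, 58.00, 76.2 and 58.7 in 24 h tumors and 67.9, 63.4, 87.7 and 77.7 in 48 h tumors. Its 8 h tumors lay below the vehicle tumors, and its tumors at the other times overlapped them.

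The PeBoW complex, which is needed to process the large subunit rRNA, is made of PES1, BOP1 and WDR12. Their 8 h log2 fold changes were -1.05 ± 0.14, -1.30 ± 0.29 and -1.27 ± 0.19 (SE, edgeR adjusted p at most 0.00121). BOP1 passed at 8 h alone. NOC3L and NOP2, an rRNA methyltransferase, changed by -2.03 and -1.76 at 8 h, and NOP2 had the largest rise of a member from 8 to 24 h (1.69 ± 0.26, adjusted p = 2.06e-04). BRIX1, EBNA1BP2, NIP7, NOP16 and RRP1B changed by -1.21, -1.06, -1.30, -1.22 and -0.80 at 8 h. PPAN, a factor of large subunit rRNA processing, was at its lowest at 4 h, with 6.07 to 9.76 CPM against 14.2 to 24.5 CPM in vehicle tumors, and changed by -1.34 ± 0.21 at 4 h and -0.91 ± 0.21 at 8 h (adjusted p = 8.67e-05 and 0.00118). PPAN overlaps the read-through gene PPAN-P2RY11, so its share of reads is uncertain.

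The 6 nucleolar scaffold, chaperone and remodelling members all fell at 8 h and all fell further from 2 to 8 h. NOLC1, a chaperone of small nucleolar particles, read 136, 113, 80.1 and 106 CPM in vehicle tumors, 51.2, 54.2, 44.6 and 50.5 in 2 h tumors, 59.1, 67.4, 54.7 and 77.3 in 4 h tumors, 31.7, 20.5, 22.01 and 14.9 in 8 h tumors, 53.4, 59.9, 86.4 and 44.8 in 24 h tumors and 77.9, 66.02, 100.3 and 64.7 in 48 h tumors. Its 8 h tumors lay below every other tumor, and 24 h tumor 3 and 48 h tumor 3 lay within the vehicle range. The log2 fold change was -2.28 ± 0.22 at 8 h against vehicle and -1.17 ± 0.22 from 2 to 8 h (SE, edgeR adjusted p = 9.11e-08 and 0.00283), and from 8 to 24 h it rose by 1.45 ± 0.22 (adjusted p = 1.56e-04). NPM1, an abundant chaperone that holds the granular part of the nucleolus together, read 889, 846, 728 and 776 CPM in vehicle tumors, 466, 486, 433 and 493 in 2 h tumors, 512, 520.3, 543 and 595 in 4 h tumors, 371, 325, 229 and 306 in 8 h tumors, 284, 376, 448 and 324 in 24 h tumors and 526, 438, 546 and 433 in 48 h tumors. Every treated NPM1 tumor lay below every vehicle tumor, and its 8 h and 24 h tumors overlapped. Against vehicle NPM1 changed by -1.40 ± 0.15, -1.18 ± 0.15 and -0.74 ± 0.14 at 8, 24 and 48 h (adjusted p = 2.18e-07, 8.93e-06 and 0.00186), and from 8 to 24 h the difference of 0.22 ± 0.14 did not pass (adjusted p = 0.429). NPM1 has 45 named pseudogenes, which held 5.32% as many counts as the gene.

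MYBBP1A, a nucleolar partner of MYB proteins, was not called at 2 h and was near vehicle again at 24 h. It read 52.7, 43.4, 33.1 and 43.9 CPM in vehicle tumors, 30.1, 37.5, 41.2 and 37.9 in 2 h tumors, 25.1, 21.2, 19.1 and 24.5 in 4 h tumors, 25.6, 15.9, 21.5 and 16.9 in 8 h tumors, 66.00, 33.7, 52.5 and 35.8 in 24 h tumors and 37.2, 37.9, 44.3 and 41.9 in 48 h tumors. Its 2 h tumors overlapped the vehicle tumors, its 4 h and 8 h tumors did not, and its 24 h and 48 h tumors lay within or above the vehicle range. MYBBP1A changed by -0.24 ± 0.19 at 2 h, which did not pass, by -0.95 ± 0.19 at 4 h and by -1.11 ± 0.19 at 8 h (log2, SE, edgeR adjusted p = 0.37, 0.00131 and 8.51e-05), and from 8 to 24 h it rose by 1.23 ± 0.19 (adjusted p = 2.56e-04). NCL (nucleolin), the RNA helicase DDX21 and LYAR changed by -1.23, -1.99 and -1.75 at 8 h.

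The list also held 4 genes outside ribosome assembly proper, and none of the 4 passed from 2 to 8 h or from 8 to 24 h. ODC1, the rate-limiting enzyme of polyamine synthesis, read 90.4, 91.3, 73.9 and 64.6 CPM in vehicle tumors, 35.3, 32.6, 30.5 and 35.1 in 2 h tumors, 45.3, 65.4, 35.3 and 56.5 in 4 h tumors, 24.9, 32.1, 15.95 and 17.8 in 8 h tumors, 26.9, 26.4, 57.1 and 31.1 in 24 h tumors and 45.5, 29.98, 46.1 and 34.2 in 48 h tumors. Its tumors at 2, 8, 24 and 48 h all lay below the vehicle tumors, and 4 h tumor 2 overlapped them. Against vehicle ODC1 changed by -1.26 ± 0.25, -1.82 ± 0.25 and -1.04 ± 0.24 at 2, 8 and 48 h (log2, SE, edgeR adjusted p = 9.24e-04, 6.78e-06 and 0.00742), the largest 48 h fall of a member. SRM, the spermidine synthase of the same pathway, scattered widely and read 12.3, 18.5, 10.6 and 16.5 CPM in vehicle tumors, 18.4, 15.1, 10.52 and 9.68 in 2 h tumors, 10.1, 23.1, 7.13 and 14.6 in 4 h tumors, 9.08, 6.94, 2.37 and 8.72 in 8 h tumors, 25.3, 6.11, 15.4 and 9.01 in 24 h tumors and 11.1, 6.96, 16.4 and 11.5 in 48 h tumors. The highest SRM level of all was in 24 h tumor 1 and the lowest in 8 h tumor 3. Its 8 h fall of -1.10 ± 0.44 (adjusted p = 0.0459) lost its call without vehicle tumor 1, 2 or 4 and without 8 h tumor 2 or 3. PA2G4, which associates with ribosomes, read 231, 211, 136 and 195 CPM in vehicle tumors, 137, 149, 148 and 105 in 2 h tumors, 157, 159, 122 and 171 in 4 h tumors, 103, 129, 82.95 and 107 in 8 h tumors, 151, 102, 161 and 103 in 24 h tumors and 140.1, 102, 171 and 129.7 in 48 h tumors. All of its 8 h tumors lay below the lowest vehicle tumor, and its other groups overlapped vehicle tumor 3 (8 h log2 fold change -0.87 ± 0.19, adjusted p = 9.46e-04). TBRG4, a regulator of mitochondrial RNA, had the smallest 8 h change of these genes (-0.72 ± 0.13, adjusted p = 1.43e-04) and read 95.1, 89.6, 62.6 and 80.6 CPM in vehicle tumors, 56.1, 69.4, 73.03 and 72.3 in 2 h tumors, 60.8, 49.6, 47.6 and 54.7 in 4 h tumors, 53.8, 47.1, 54.3 and 43.4 in 8 h tumors, 76.02, 61.6, 68.9 and 60.03 in 24 h tumors and 71.8, 69.1, 84.99 and 80.5 in 48 h tumors. Its 2 h, 24 h and 48 h tumors overlapped the vehicle tumors.

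Between genes, levels were compared per length as TPM in vehicle tumors. NPM1 was highest at 901 ± 35.4 TPM (SD, n = 4), followed by NCL at 255 ± 44.9 TPM and NHP2 at 185 ± 39.6 TPM. UTP20 was lowest at 4.80 ± 0.89 TPM, after WDR3 at 7.47 ± 2.18 TPM. The ranges of mean ± SD of NPM1 and NCL did not meet, whereas those of NCL and NHP2 overlapped, as did those of WDR3 and UTP20. Within every vehicle tumor, however, NCL was above NHP2 and WDR3 was above UTP20.

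By 24 h most members had risen from their 8 h level. From 8 to 24 h 32 of the 45 members rose, against 5.3% of all tested genes, and none fell, against 1.58%. Without 24 h tumor 3, which had the highest level for 31 members in its group, the count was 23. Without the 6 tumors of high host marker sums it was 12. Of the 32 members that rose, 18 were still below vehicle at 24 h and 14 were not called against vehicle. The 13 members with no call for a rise were FBL, GAR1, NHP2, BOP1, NOC2L, BRIX1, EBNA1BP2, RRP1B, NPM1, ODC1, SRM, PA2G4 and TBRG4. Relative to the 8 h log2 fall, a median of 39.6% was left at 24 h and 28.8% at 48 h. For MYC 31.5% was left at 24 h and 19.0% at 48 h, and from 8 to 24 h MYC rose by 2.45 ± 0.27 (log2, SE, edgeR adjusted p = 3.47e-06).

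From 24 to 48 h 0 of 45 members were called by edgeR, where 2.47% of all tested genes rose and 1.6% fell. The median log2 difference was 0.14, with 32 members higher and 13 lower. Leaving out 24 h tumor 3 gave 4 members that rose, and DESeq2 gave 1. Of the 14 members below vehicle at 48 h, 12 were also called at 24 h. The 48 h count was 2 without 48 h tumor 2, 3 without vehicle tumor 1, 4 without 48 h tumor 4, 5 without vehicle tumor 2 and 6 without vehicle tumor 4. NPM1 and ODC1 were the 2 members that kept the 48 h call when any of the 8 tumors was left out. At all 5 times 8 members fell, namely HEATR1, UTP4, WDR43, UTP20, DKC1, BRIX1, GNL3 and NPM1, and all 8 but NPM1 lost the 48 h call when at least 1 of the tumors was left out.

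Within some groups 1 tumor was highest or lowest for most members. Among vehicle tumors, tumor 1 was highest for 37 members (27.8% of all tested genes) and tumor 3 lowest for 43 (30.3% of genes), with mean log2 CPM over the members of 5.99 and 5.39. Among 24 h tumors, tumor 3 was highest for 31 members (30.9% of genes) at a mean of 5.52, and it also had the highest MYC level, at 53.2 CPM against 22.7 to 35.6 CPM in the other 24 h tumors. Among 48 h tumors, tumor 3 was highest for 36 members (24.0% of genes) at a mean of 5.57, with MYC at 63.5 CPM against 34.8 to 44.9 CPM in the others. In vehicle tumor 3 MYC was the lowest of the group at 63.9 CPM. At 4 and 8 h the most members that 1 tumor led was 26, in 4 h tumor 2 (32.9% of genes) and in 8 h tumor 1 (23.1%). At 2 h no tumor stood out, since tumor 1 was highest for 15 members and lowest for 15. Spread at 2 h was narrower, with group SDs of the mean log2 CPM of 0.05 at 2 h and 0.26 in vehicle tumors. Vehicle tumor 3 had an epithelial marker sum of 9106 CPM, against 10768 to 12393 CPM in the other vehicle tumors, and the part of this in its low members was not tested.

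Most genes of the same pathway outside the list also fell at 8 h, with smaller medians. Of 37 other small subunit assembly genes 28 fell at 8 h, with a median log2 fold change of -0.91, and 20, 17, 18 and 6 fell at 2, 4, 24 and 48 h. UTP14A, a processome protein, changed by -1.75, and BUD23, an rRNA methyltransferase, by 0.07, which did not pass. Of 45 other large subunit assembly genes 38 fell at 8 h, with a median of -0.87, and 23, 22, 20 and 5 fell at the other times in order. NIFK, a partner of Ki-67, changed by -1.48 and NOP53 by -0.16, which did not pass. Of 13 other RNA polymerase I genes 8 fell and 1 rose at 8 h (median -0.82), with POLR1E at -1.48 and POLR1D, shared with RNA polymerase III, at -0.17 and not called. Of 10 other small nucleolar particle assembly genes 8 fell (median -0.67), with ZNHIT6 at -1.55 and RUVBL2 at -0.40 and not called. These lists, like the members, are set beside a median of 0.07 over all tested genes at 8 h, of which 23.7% fell and 20.6% rose.

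Cytosolic ribosomal protein genes, which encode the proteins of the finished ribosome, had another course. Of 79 such genes 25, 49, 53, 71 and 48 fell at the 5 times in order, and none rose. Over all tested genes 13.6, 8.39, 23.7, 13.8 and 4.46% fell at the 5 times. The median log2 fold change of the 79 was -0.26, -0.46, -0.50, -0.73 and -0.51 at those times. The lowest group mean was at 24 h for 66 of the 79 and at 8 h for 5, whereas 42 of the 45 members were lowest at 8 h. Of all tested genes 10.3% were lowest at 24 h and 24.8% at 8 h. RPS12 changed by -1.29 at 8 h and RPL31 by -0.28, which did not pass. From 8 to 24 h 2 ribosomal protein genes fell, where 1.58% of all tested genes fell, and none rose, where 5.3% rose. Over the same interval 32 members rose. The difference in timing between the lists was not tested.

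**Figure D4:**
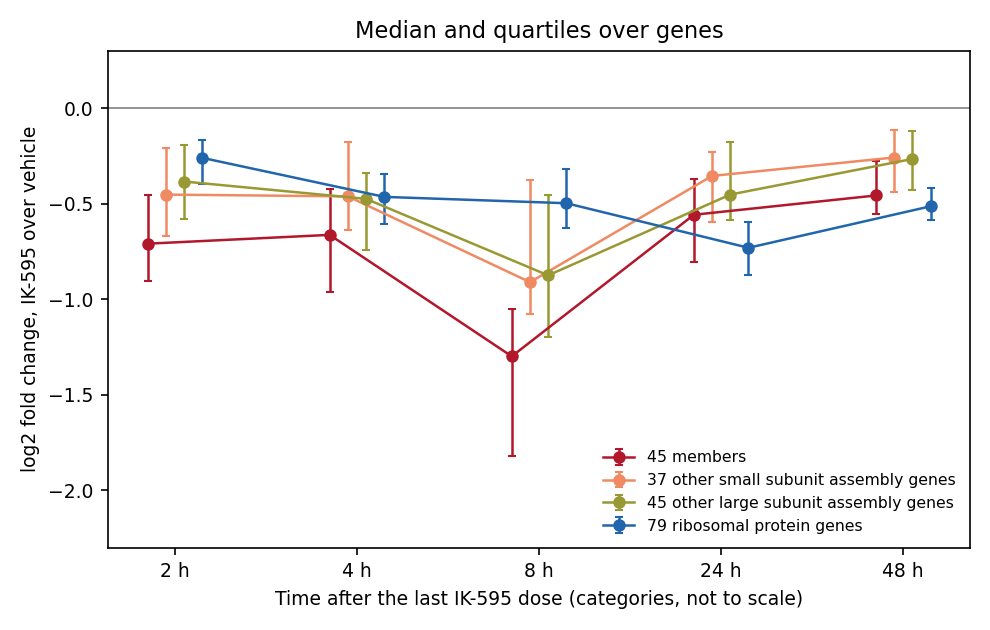
Median log2 fold change of IK-595 over vehicle at each time, with quartiles over genes as bars, for the 45 members, 37 other small subunit assembly genes, 45 other large subunit assembly genes and 79 ribosomal protein genes. The members reach -1.30 at 8 h and the ribosomal protein genes reach -0.73 at 24 h.

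Related transcription and polyamine genes gave a mixed picture. Of 14 RNA polymerase III genes, which include subunits that make the smallest rRNA and tRNAs, 10 fell and 1 rose at 8 h, with a median of -0.63. POLR3D changed by -1.07 and the repressor MAF1 by -0.11, which did not pass. Of 8 polyamine genes outside the members 4 fell at 8 h, among them AZIN1, an inhibitor of antizyme, at -1.17, while the antizyme gene OAZ1 was at -0.14 and not called. In the MYC, MAX and MLX network, 4 of 12 tested genes, MYC among them, fell and 5 rose at 8 h, and MAX rose by 0.53. Over all tested genes 23.7% fell and 20.6% rose at 8 h.

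Some members share reads or loci with other genes. By annotation 19 overlap a protein-coding gene, 20 overlap a gene on the opposite strand, 9 hold small nucleolar RNA genes in their introns and 12 have named pseudogenes. Whether strand was used in counting is not given in the sources used here. Reads from sequence that a member shares with an antisense partner, such as WDR3 with SPAG17, may therefore not be told apart. The overlaps are of whole genes, and overlap of exons was not tested.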

How the data were processed

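Polyadenylated RNA of 24 tumors was sequenced as read pairs of 150 bases. Per the submitters' processing notes, the authors' tools were Salmon 0.14.1, FastQC 0.12.1 and bcl2fastq 2.17, with the build GRCh38.p13. The authors deposited estimated counts per gene. TPM values, scaled to the same total in each tumor, were deposited beside them per the same notes and the values. Not given in the sources used here are the strand setting, the annotation release and how reads from mouse cells were handled. Conserved genes may therefore hold mouse reads. Titles gave the groups, because the time tag on IK-595 samples mentions vehicle dosing.

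Of 60230 genes, 60089 were given a symbol. Gene positions were read from GENCODE release 29. Estimated counts were rounded for the tests, because 59.6% of nonzero values lay within 0.0015 of a whole number. Genes kept by filterByExpr (18242, with 99.9% of counts) entered 1 model of the 6 groups with TMM scaling, tested by robust quasi-likelihood in edgeR 4.0.16 (R 4.3.3). P values were adjusted by Benjamini-Hochberg over all genes tested within each of 10 comparisons and the F test over the 5 times. A gene is said to have fallen, risen or passed at an adjusted p under 0.05, and each adjusted p is from edgeR unless limma is named. CPM are TMM-scaled, with a prior count of 2 added before logs. The ratio of each gene to MYC was tested with limma 3.58.1 on log2 CPM. The tests were checked on simulated counts with planted changes. Replicates are separate animals.

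The members, the other gene lists, the marker lists and the tests were chosen with earlier results of these data known. Values in every tumor are given, within each role, for the members with the largest and smallest change at 8 h and the highest vehicle TPM, and for MYC. SRM was added after its values were seen. From each other list the gene with the smallest adjusted p at 8 h and the most expressed gene that did not pass are named, and MAX was added after its values were seen. Alternatives were scaling by upper quartile or RLE, DESeq2 1.42.0, limma-voom, other filters, a replicate block, a fit of only the groups compared, limma trend on log2(TPM + 1) and log2(TPM + 0.1), removal of mitochondrial genes, an adjusted p under 0.01 and leaving out each tumor. Both fits without several tumors were added once the data had been seen: one left out 2 h tumor 1 and 4 h tumor 2, the other these and the 4 further tumors whose summed muscle, fat and red cell markers were above 500 CPM.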

Additional observations from a re-analysis of the deposited data

Results flagged for a closer look

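Among 120 groups of 4 tumors checked, 4 held a tumor far from the other tumors of its group for a named gene, and chance alone flags about 1 in 20 such groups. FBL was at 57.6 CPM in vehicle tumor 3, below 77.9 to 82.4 CPM in the other vehicle tumors. UTP4 was at 37.2 CPM in 2 h tumor 1, above 29.4 to 30.5 CPM in the other 2 h tumors. DKC1 was at 66.6 CPM in 2 h tumor 2, above 62.8 to 62.9 CPM in the others. WDR3 was at 11.4 CPM in 4 h tumor 1, below 14.3 to 14.8 CPM in the others.

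Effects of IK-595 at different times differed by a direct edgeR test between the times. Of the 45 members 4 differed between 4 and 2 h, 27 between 8 and 4 h, 24 between 8 and 2 h and 32 between 24 and 8 h. The first 3 counts were falls, against 9, 15.5 and 3.41% of all tested genes, and the last was a count of rises, against 5.3% of genes. The 4 members between 4 and 2 h are 8.89% of the list, near the share of all genes. Without the 6 tumors of high host marker sums the counts were 1, 0, 1 and 12. That fit also called 0 of all tested genes between 8 and 4 h.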

How the results depend on the processing

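The 8 h falls held best. At an adjusted p under 0.05, 42 of 45 members were called under every alternative and every tumor left out. This held for 25 of 31 at 2 h, 16 of 31 at 4 h, 17 of 25 at 24 h and 2 of 14 at 48 h. Between IK-595 times it held for 1 of 24 for 8 against 2 h and for 11 of 32 for 24 against 8 h. The stricter threshold of 0.01 was left out of these counts, and under it 24, 21, 43, 17 and 3 members passed at the 5 times in order. The larger moves in counts of members were as follows. With limma trend on log2(TPM + 1) and log2(TPM + 0.1) they were 20 and 19 at 4 h, 4 and 4 at 48 h, and 10 and 11 for 8 against 2 h, and log2(TPM + 0.1) gave 2 for 4 against 2 h, both rises. Without a low-count filter they were 2 for 4 against 2 h and 14 for 8 against 2 h. Without 2 h tumor 1 and 4 h tumor 2 together they were 2 and 15. Without the 6 tumors of high host marker sums they were 1 for 4 against 2 h, 0 for 8 against 4 h, 1 for 8 against 2 h and 12 for 24 against 8 h, in a fit with 2 tumors each at 4 and 8 h. That fit called 0 of all tested genes for 8 against 4 h. At an adjusted p under 0.01 the counts of members were 3 at 48 h, 1 for 4 against 2 h and 9 for 8 against 2 h. With only the groups compared 16 members rose from 8 to 24 h, and DESeq2 called 1 from 24 to 48 h. Smaller moves were also seen for 8 against 2 h, from 24 members in the edgeR fit. Limma-voom, upper-quartile scaling and removal of mitochondrial genes each gave 18, RLE scaling gave 19 and DESeq2 gave 28. On leaving out each tumor the counts ranged from 26 to 38 at 2 h, 21 to 32 at 4 h, 43 to 45 at 8 h, 19 to 33 at 24 h, 2 to 18 at 48 h, 1 to 8 for 4 against 2 h (5 falls and 3 rises without 2 h tumor 1), 22 to 30 for 8 against 4 h, 9 to 23 for 8 against 2 h, 23 to 35 for 24 against 8 h and 0 to 4 for 48 against 24 h. The mean log2 CPM of the members at 2 h minus vehicle was -0.72, and -0.84 as mean log2(TPM + 1). At 4 h the 2 values were -0.73 and -0.63, and at 8 h -1.41 and -1.47. For 4 against 2 h the members' median log2 fold change was -0.02 with 23 lower in the edgeR fit. With limma trend on log2(TPM + 1) it was 0.22 with 11 lower, so the course from 2 to 4 h depended on the measure. The ratio to MYC gave 0 members under each of the 8 alternatives run for it and on leaving out each 2 h or 8 h tumor. It was not run under DESeq2, limma-voom, RLE or upper-quartile scaling. Nor was it run without a low-count filter, with only the groups compared or with mitochondrial genes left out. The cause of these moves was not tested.

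Values that changed sign were close to 0 and not called. Against vehicle at 24 h, RRP12 was 0.012 under both TPM fits, and with upper-quartile scaling PPAN was 0.0015, NOP2 0.028 and SRM 0.048. With the TPM fits FBL was 0.0052 and 0.0046 for 8 against 2 h and 0.024 and 0.025 for 24 against 8 h, and NHP2 was 0.11 and 0.11 for 24 against 8 h. Without the 6 tumors NOP2 was 0.044 and SRM 0.085 at 24 h, and FBL was 0.22 and NHP2 0.21 for 24 against 8 h. On leaving out each tumor in turn, SRM ranged from -0.32 to 0.033 at 2 h, -0.43 to 0.17 at 4 h and -0.52 to 0.18 at 24 h. PPAN ranged from -0.31 to 0.0055, NOP2 from -0.31 to 0.068 and MYBBP1A from -0.10 to 0.24 at 24 h, and MYBBP1A from -0.21 to 0.0073 at 48 h. For 24 against 8 h FBL ranged from -0.11 to 0.083 and NHP2 from -0.23 to 0.039. Upper-quartile scaling shifted the median of all genes at 8 h by 0.14 and log2(TPM + 1) by -0.19, and the share of higher genes among those called at 8 h was 46.5% in the edgeR fit, 58.4% and 27.8%. All 45 members stayed lower at 8 h under both.

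Replicate numbers did not pair tumors: among 60 same-numbered pairs across groups, 20 had a correlation above 0.1, and the mean was -0.013. With a replicate block the members called were 30, 28, 45, 24 and 13 against vehicle in order of time, 4 for 4 against 2 h, 25 for 8 against 4 h, 21 for 8 against 2 h, 32 for 24 against 8 h, 0 for 48 against 24 h, 42 in the F test and 0 for the ratio to MYC. Depth of 10.52 to 20.64 M counts left a median SE of 0.19 on a member's log2 fold change.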
